A study of Mus musculus with 8 samples.

Results

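The antigen receptor loci of the mouse genome were examined in 8 lists of protected DNA positions from male germ cells. They were taken as 4 intervals of the mm9 build: Igh on chr12 from 114.5 to 117.3 Mb, Igk on chr6 from 67.6 to 70.7 Mb, Tcra/Tcrd on chr14 from 53.0 to 55.0 Mb and Tcrb on chr6 from 40.8 to 41.6 Mb. A position belonged to an interval when its summit, the base of highest coverage, lay inside. The intervals are defined by their place, and the loci were picked with earlier results of these data known. Together they held 103020 of the 37444400 positions on chromosomes 1 to 19 and X, summed over the 8 lists. In wild-type (WT) spermatocytes 5407 positions lay in Igh, 4416 in Igk, 3214 in Tcra/Tcrd and 1378 in Tcrb.

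Cell fractions of mouse testis had been enriched for spermatocytes, which are in meiosis, for round spermatids, which are haploid, and for condensing spermatids, in which histones give way to transition proteins and protamines. Chromatin was digested with micrococcal nuclease (MNase), which spares DNA covered by protein, and the spared fragments were sequenced. WT animals were set against H2A.L.2-less animals, which lack a histone variant of late spermatids. Neither the age nor the number of animals in a fraction was given in the sources used here. Each stage had 1 nucleosome library per genotype, and for condensing spermatids these held fragments of about 130 to 170 bp. A further library per genotype held the small structures of condensing spermatids, fragments of about 40 to 80 bp.

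Each locus encodes an antigen receptor chain of lymphocytes: Igh the heavy chain of antibodies, Igk their kappa light chain, Tcra/Tcrd the alpha and delta chains of the T cell receptor, the latter nested within the former, and Tcrb the beta chain. A working gene is made only in developing lymphocytes, where the RAG recombinase joins single V and J segments, and in some chains D segments, from arrays. Male germ cells keep these arrays in the inherited, unjoined order, and transmit them packaged with protamines. A RefSeq gene table of the GRCm38.p6 build lists 120 V segments, 63 V pseudogenes, 10 D and 4 J segments and 8 constant genes for Igh. For Igk it lists 102 V segments, 60 V pseudogenes, 5 J segments and 1 constant gene. Tcra/Tcrd has 119 V segments, 17 V pseudogenes and 53 J segments there, and Tcrb 22 V segments, 13 V pseudogenes and 13 J segments. In that order the constant genes Igha to Ighm stand before all 183 V entries of Igh, while Igkc follows all 162 V entries of Igk, and Trdc and Trac follow the 130 Trav entries. The table is of another build than the positions, so no segment was placed on the windows below.

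The lists held between 3779744 and 5385833 positions on chromosomes 1 to 19 and X, made from at least 207000000 and at most 753000000 reads a sample, and how deep each library was sequenced is unknown. The summit value, the coverage at a summit, had a median between 192 and 240 in the 6 nucleosome lists, and of 488 (WT) and 160 (H2A.L.2-less) in small structures. Its first percentile, a measure of the calling floor, was 160 to 176 in the nucleosome lists, 272 (WT) and 96 (H2A.L.2-less) in small structures. Every group had 1 library, so no difference has a replicate check. The SDs below are over windows of the locus's own length along the rest of its chromosome, so they show how much the genome varies from place to place and say nothing of animals.

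The first comparison asked how densely each locus was covered with positions. Igk was sparse in spermatocytes and WT round spermatids and had few small structures. Igh was thin mainly in small structures, Tcrb likewise but less clearly, and Tcra/Tcrd was thinned by a like amount in all 8 lists. Igk held 1425 positions per Mb in WT spermatocytes against 2091 on the rest of chromosome 6, a ratio of 0.681 (SD 0.287 over 44 windows). The ratio was 0.744 in H2A.L.2-less spermatocytes (SD 0.238), and these were the only lists in which Igk lay over 1 SD below the rest. In round spermatids it was 0.715 (WT, SD 0.287, just within 1 SD) and 0.925 (H2A.L.2-less), and in condensing nucleosomes 0.881 and 0.891. Of 44 windows, 10 (WT) and 9 (H2A.L.2-less) were sparser than Igk in spermatocytes, and 11 in WT round spermatids. Small structures of Igk stood at 0.511 (WT) and 0.485 (H2A.L.2-less), with SDs of 0.509 and 0.552. Of the 44 windows on the rest of chromosome 6, 11 had an even lower small-structure density in either genotype.

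Igh lay nearer to its chromosome in the nucleosome lists. Its ratio was 0.916 (WT) and 0.981 (H2A.L.2-less) in spermatocytes, 0.896 in WT round spermatids, and 0.881 and 0.890 in condensing nucleosomes, all within 1 SD of the rest. Only in H2A.L.2-less round spermatids was Igh denser than the rest of chromosome 12, with 2231 positions per Mb against 1949. The ratio was 1.14 (SD 0.145), thus about 1 SD above the rest, and above 34 of 40 windows. In small structures the ratio was 0.600 (WT) and 0.557 (H2A.L.2-less) (SDs 0.493 and 0.535), with 13 of 40 windows lower still. Among positions at or above the list median of summit value, the Igh ratio was 0.999 (WT) and 1.07 (H2A.L.2-less) in spermatocytes, but 0.416 and 0.432 in small structures.

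Tcra/Tcrd had ratios of 0.785 and 0.794 in spermatocytes, 0.791 and 0.797 in round spermatids, 0.880 and 0.889 in condensing nucleosomes, and 0.839 and 0.837 in small structures, WT first. None of these lay over 1 SD, at least 0.184, from the rest of chromosome 14 except that of H2A.L.2-less round spermatids. Tcrb had 0.824 and 0.918 in spermatocytes, 0.824 and 0.994 in round spermatids, 0.932 and 0.935 in condensing nucleosomes, and 0.658 and 0.622 in small structures, all within 1 SD. In small structures 69 (WT) and 70 (H2A.L.2-less) of 176 windows were lower than Tcrb. Its sides were no richer. The 6 windows of 100 kb beside Tcrb had a median of 104.5 (WT) and 82 (H2A.L.2-less) small structures, against 122.5 and 84.5 inside. Part of the Tcra/Tcrd interval was bare: 8.6% of its 1 kb bins held no summit in any list, against 4.32% on the rest of chromosome 14. In Igk the share was 4.06% against 2.73%, in Igh 1.86% against 3.36% and in Tcrb 2.38% against 2.73%. Whether reads can be aligned there was not tested.

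**Figure D1:**
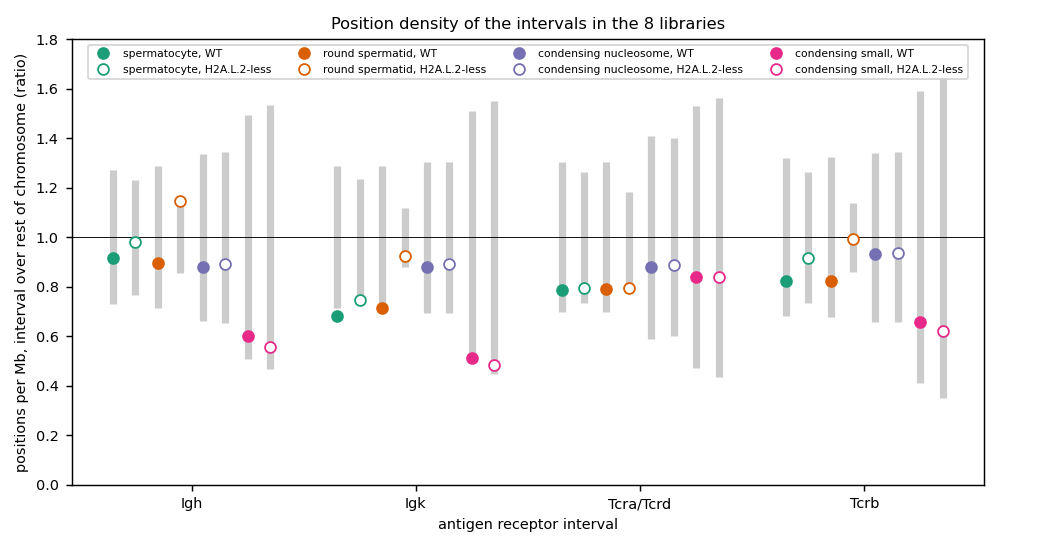
Positions per Mb of each interval over the rest of its chromosome, with filled points for WT and open points for H2A.L.2-less libraries and grey bars for 1 SD over same-length windows around 1. Most points lie inside their bar, and the small-structure points of Igh, Igk and Tcrb lie lowest, between 0.485 and 0.658.

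The loci were not even along their length. In Igh, the window from 114500001 to 114600000 held the most positions of the interval in each of the 8 lists. It had 434 (WT) and 406 (H2A.L.2-less) in spermatocytes, 432 and 330 in round spermatids, 286 and 303 in condensing nucleosomes, and 463 and 386 among small structures. Numbers then declined over the next 200 kb. From 114800001 to the end of the interval, WT spermatocyte windows held between 130 and 233 positions and WT small-structure windows between 64 and 157. The median Igh window had 171.5 positions in WT spermatocytes (206 on the rest of the chromosome) and 102.5 WT small structures (198 on the rest). The fewest in WT spermatocytes, 130, were from 116700001 to 116800000. Just past the interval, from 117300001, WT small structures stood at 313, against 155 in the last window inside.

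Igk lacked such a dense end. Its lowest window in WT spermatocytes, from 69100001 to 69200000, had 87 (WT) and 93 (H2A.L.2-less) positions in spermatocytes, 111 and 144 in round spermatids, 77 and 86 in condensing nucleosomes, and 42 and 31 small structures. The highest, from 70300001 to 70400000, had 213 and 221, 228 and 214, 170 and 152, and 188 and 123 in the same order. At the right edge WT small structures went from 165 in the last window inside to 323 in the next outside, and H2A.L.2-less ones from 122 to 261. At the left edge there was no such step, with 139 outside and 184 inside in WT.

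Tcra/Tcrd had a sparse stretch in its middle and a dense right end. The window from 53700001 to 53800000 held 72 and 65 positions in spermatocytes (WT first), 73 and 69 in round spermatids, 56 and 57 in condensing nucleosomes, and 71 and 60 small structures. This window contains 53711481 to 53720621, where no list had a summit over 9140 bp, the longest such gap in the 4 loci. The longest in Igh was 3730 bp from 115881011, in Igk 3680 bp from 68082031 and in Tcrb 2270 bp from 41288771. The densest window of Tcra/Tcrd in WT spermatocytes, from 54700001 to 54800000, had 282 and 280 positions in spermatocytes, 292 and 249 in round spermatids, 209 and 205 in condensing nucleosomes, and 324 and 236 small structures. In the gene table Dad1, which encodes a subunit of the enzyme that attaches sugar chains to new proteins, and Abhd4 follow the constant genes of this locus. Steps in small structures stood at both edges, with 262 outside and 148 inside on the left and 269 inside and 443 outside on the right in WT.

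Tcrb, the shortest interval, was the most even of the 4 in WT spermatocytes, with 143 (from 41100001 to 41200000) to 195 (from 41400001 to 41500000) positions per window. They had a coefficient of variation (CV, the SD over the mean) of 0.123 against 0.351 for the rest of chromosome 6. The chromosome's CV also holds variation between distant regions, which 8 neighbouring windows lack. The 6 windows at the sides of Tcrb had 0.181 in WT spermatocytes. In H2A.L.2-less spermatocytes they had 0.0932, against 0.116 inside. Trypsinogen genes such as Prss1 and Prss2 lie between the V and constant segments of this locus in the gene table.

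**Figure D2:**
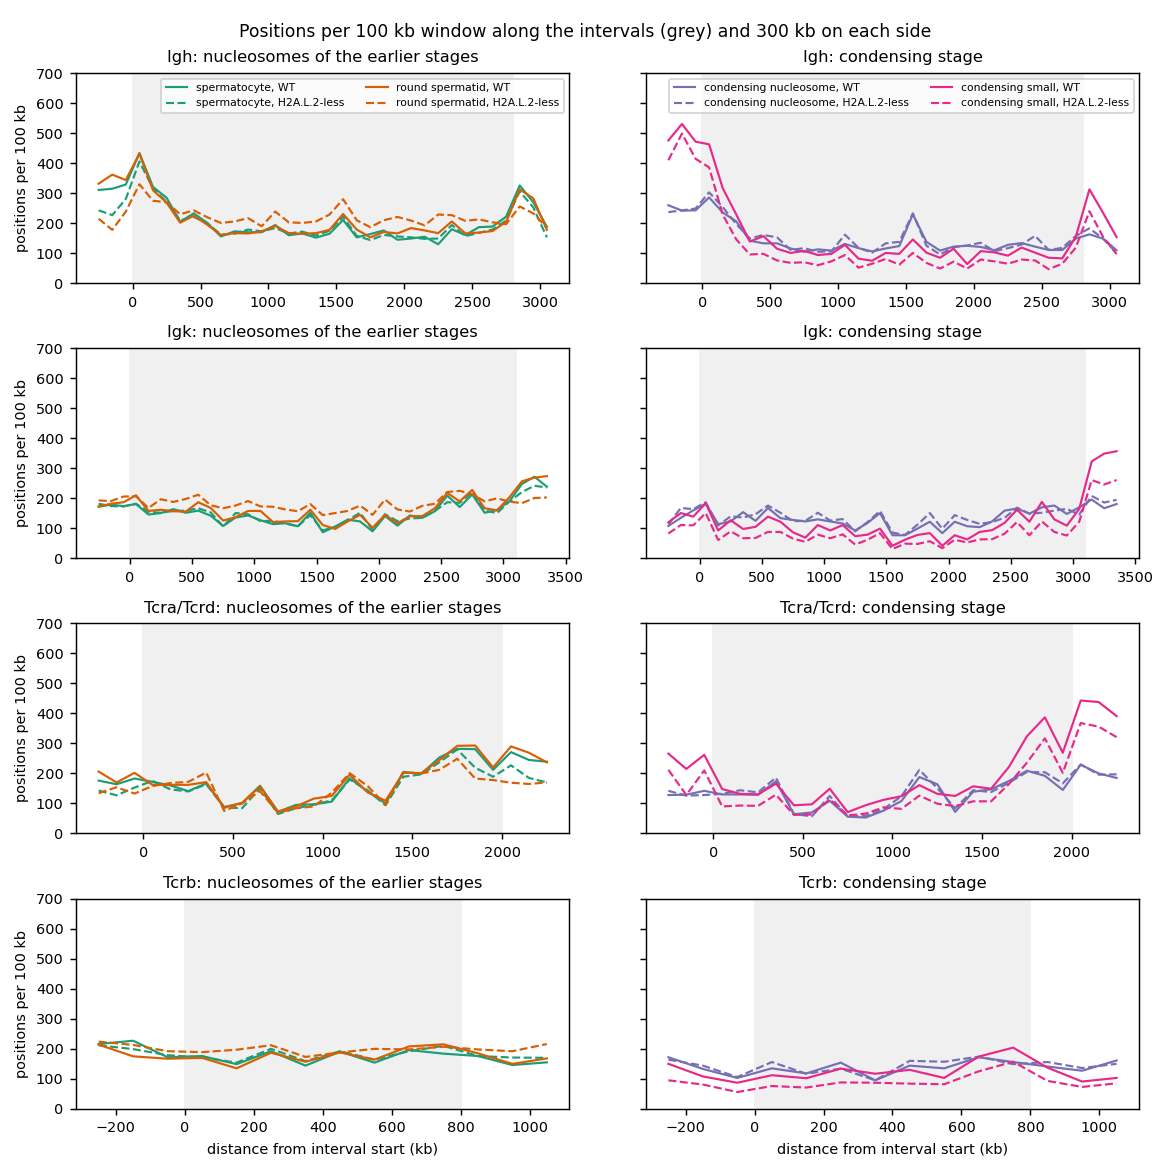
Number of positions in each 100 kb window of the 4 intervals (grey) and of 300 kb on each side, by distance from the interval's start, with solid lines for WT and dashed lines for H2A.L.2-less libraries. The first Igh window is the highest of that interval in each list, and small structures step up just outside Igk at its right edge, from 165 to 323 in WT.

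Summit heights were compared as medians over the list median. In Igh they were slightly high in the earlier stages and low in small structures. The Igh median was 1.03 (WT) and 1.04 (H2A.L.2-less) in spermatocytes and 1.07 and 1.04 in round spermatids, where the rest of chromosome 12 stood at 1.0 in each list. These values lay above 34, 39, 40 and 40 of the 40 windows. Igk stood at 0.966 in WT spermatocytes, with none of the 44 windows of chromosome 6 lower (SD 0.0221), and at 1.02 in WT round spermatids. Since summit values come in steps of 4, a difference of 0.02 is about 1 step.

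Among small structures, the share of summits at or above the list median was smaller in the loci than on the rest of their chromosomes. In WT the share was 35.3% in Igh (95% Wilson interval 33.8 to 36.9%) against 50.9% on the rest of chromosome 12. It was 31.9% in Igk (30.3 to 33.5%) and 34.6% in Tcrb (31.9 to 37.5%) against 48.2% on the rest of chromosome 6, and 38.9% in Tcra/Tcrd (37.3 to 40.6%) against 44.6%. H2A.L.2-less cells gave 39.6% in Igh (rest 51.1%), 36.4% in Igk and 40.9% in Tcrb (rest 48.9%), and 41.6% in Tcra/Tcrd (rest 45.8%). The intervals cover counting error only. Along the chromosomes, in WT, 13 of 40 windows had a lower median height than Igh and 14 of 44 a lower one than Igk. For H2A.L.2-less cells the numbers were 12 of 40 and 1 of 44. Tcra/Tcrd and Tcrb stood near the middle of their windows. Tcra/Tcrd was above 30 of 59 windows in each genotype, and Tcrb above 76 (WT) and 91 (H2A.L.2-less) of 176.

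A few summits stood far above the rest of their locus. The highest of Tcra/Tcrd lay between 53342691 and 53342711 in each of the 8 lists, at 74.4 times the list median in WT and 61.8 times in H2A.L.2-less spermatocytes. It reached 42.95 and 51.8 times in round spermatids, 31.9 and 28.6 times in condensing nucleosomes, and 19.2 and 14.95 times among small structures. Igk had its 2 highest summits near 67614581 and 67618471 in WT spermatocytes, at 30.1 and 25.5 times the list median, and within 40 bp of these places in each other list. In the 6 nucleosome lists Igk also had more summits of at least 3 times the list median than its chromosome, 0.566% in WT spermatocytes (95% Wilson interval 0.384 to 0.834%) against 0.154% on the rest of chromosome 6. Of those 25 summits, 14 lay from 67600001 to 67700000. Among small structures the share was 0.715% (0.477 to 1.07%) against 0.511% for WT, and 1.17% (0.807 to 1.70%) against 1.34% for H2A.L.2-less cells, so the interval held the chromosome's share in both. In Igh the highest summit was between 116343801 and 116343841 in the 6 nucleosome lists, at 8.41 times the list median in WT spermatocytes and 13.3 times in H2A.L.2-less round spermatids. Among small structures it was elsewhere, at 114663321 in WT (7.90 times) and 114663311 in H2A.L.2-less cells (10.75 times). Tcrb had no summit above 5.60 times the list median, reached in WT spermatocytes at 41287111. Other lists had their highest Tcrb summit near that place or near 41238261, and the small-structure lists near 40942461. How many copies of these sequences the genome holds was not tested.

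Fuzziness, the score the authors' caller gave to the scatter of fragments around a position, lay furthest below the chromosome in Tcra/Tcrd, in each list except H2A.L.2-less small structures, where Igk had the largest difference (-2.15, SD 1.68). In Tcra/Tcrd the median was lower than on the rest of chromosome 14 by 1.02 in WT spermatocytes (52.1 against 53.2, SD of windows 0.747), and 12 of 59 windows were lower still. Spermatocytes of H2A.L.2-less animals gave -0.907. The differences were -0.829 and -0.803 in round spermatids, -0.281 and -0.337 in condensing nucleosomes, and -1.40 and -1.07 in small structures. Of the 59 windows, 10 were lower than Tcra/Tcrd in H2A.L.2-less spermatocytes, and 12 (WT) and 9 (H2A.L.2-less) in round spermatids. In condensing nucleosomes 25 and 22 were lower, and in small structures 16 and 27, so there it stood nearer the middle. Igk and Tcrb were also below their chromosome in all 8 lists, Igk with -0.751 in WT spermatocytes (SD 0.782). Igh was below its chromosome in 6 lists. Beside same-length windows Tcrb was not low throughout. WT first, it exceeded 71 and 69 of 176 windows in spermatocytes and 96 and 65 in round spermatids. It exceeded most windows in both condensing nucleosome lists, and 106 and 90 in small structures. In those 6 lists Igh exceeded 19 and 21 of 40 windows (spermatocytes), 23 and 21 (condensing nucleosomes), and 18 and 16 (small structures). Fuzziness was not compared at matched density.

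The spacing of nucleosomes was read from distances between summits in the 4 lists of the earlier stages. All 4 loci held regular arrays, with a first peak of the distance curve at 180 or 190 bp and a second at 360 to 380 bp. Regularity was taken as the second peak over the trough before it, which can come out higher where few pairs are counted. Each locus was set beside windows of its own length. Most of these were denser than the locus, except for Igh in H2A.L.2-less round spermatids, where 34 of 40 were sparser, and regularity was not compared at matched density. The ratio of Tcra/Tcrd was 1.78 in WT spermatocytes (median of 59 windows 1.78), 2.37 in H2A.L.2-less spermatocytes (1.94, SD 0.250), 2.17 in WT round spermatids (1.85, SD 0.192) and 2.42 in H2A.L.2-less round spermatids (2.19, SD 0.234). It exceeded 30, 57, 57 and 51 of the 59 windows in these lists.

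Igh had a ratio of 1.86 in WT spermatocytes, above 33 of 40 windows, and of 1.87 in those of H2A.L.2-less animals, above 12 of 40. Round spermatids gave 1.90 (WT, above 24 windows) and 2.2 (H2A.L.2-less, above 20). Igk was at 1.62 in H2A.L.2-less spermatocytes, below all 44 windows (median 1.90, SD 0.154). In WT spermatocytes it was at 1.77, above 27 windows. Round spermatids gave 1.96 (WT, above 38) and 2.21 (H2A.L.2-less, above 19). Tcrb had 1.71 in spermatocytes of both genotypes and 2.02 and 2.36 in round spermatids, on 1378 to 1556 positions. WT first, it exceeded 58 and 27 of 176 windows in spermatocytes and 126 and 98 in round spermatids. Whether Igh, Igk or Tcrb lay above or below the rest of the chromosome depended on the smoothing or on the number of positions. Tcra/Tcrd was above it in all 4 lists with smoothing over 3 or 5 bins. In the condensing lists the ratio was between 1.02 and 1.32 in the 4 loci, and no repeat was read there.

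**Figure D3:**
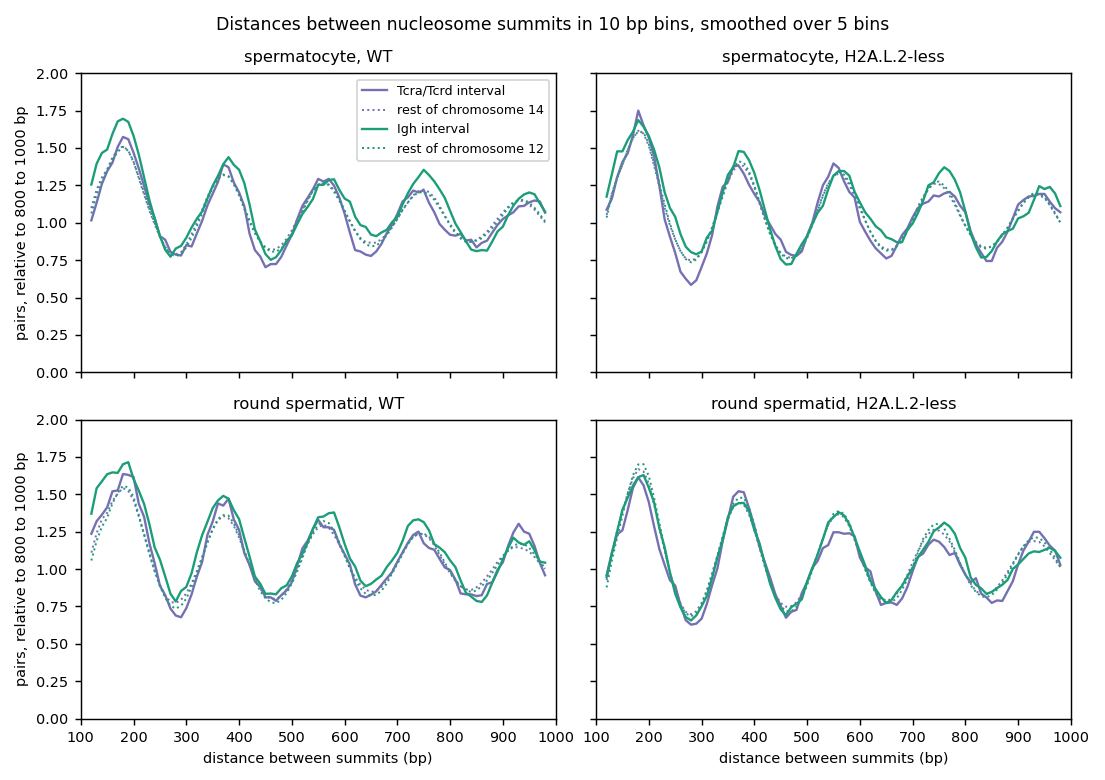
Frequency of summit pairs by distance (bp) in the Tcra/Tcrd and Igh intervals (solid) and on the rest of their chromosomes (dotted), relative to the mean from 800 to 1000 bp, in the 4 lists of spermatocytes and round spermatids. Peaks recur about every 190 bp, and the trough before the second peak is deeper for Tcra/Tcrd than for chromosome 14 in H2A.L.2-less spermatocytes.

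Genotypes were then compared by the number of positions, relative to the rest of the same chromosome. Igh, Igk and, less clearly, Tcrb held relatively more nucleosome positions in H2A.L.2-less than in WT round spermatids. Tcra/Tcrd did not, and none of the 4 loci stood out in condensing nucleosomes. With 1 library per genotype, genotype and library cannot be told apart. In round spermatids Igh had 5515 positions (WT) and 6247 (H2A.L.2-less), Igk 4763 and 5612, Tcrb 1416 and 1556, and Tcra/Tcrd 3300 and 3077. Relative to the rest of the chromosome the log2 ratio of H2A.L.2-less over WT was 0.35 for Igh (SD of windows 0.27), 0.37 for Igk (SD 0.28), 0.27 for Tcrb (SD 0.32) and 0.01 for Tcra/Tcrd (SD 0.26). The first and second of these lay over 1 SD from 0. The Igh value was above 31 of 40 windows, the Igk value above 35 of 44 and the Tcrb value above 116 of 176.

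In spermatocytes the log2 ratios of Igh, Igk and Tcrb had the same sign and were smaller, at 0.10 for Igh (SD 0.09), 0.13 for Igk (SD 0.09) and 0.16 for Tcrb (SD 0.11). Tcra/Tcrd stood at 0.02 (SD 0.09). For condensing nucleosomes they were between 0.01 and 0.02 in the 4 loci. Among small structures they were -0.11 for Igh (SD 0.08), -0.08 for Igk, -0.08 for Tcrb and 0.00 for Tcra/Tcrd. The sign for small structures depended on how many positions were counted: with the 3779744 highest positions of each list it was positive in all 4 loci, 0.08 for Igh, 0.32 for Igk, 0.29 for Tcrb and 0.04 for Tcra/Tcrd. The round spermatid ratios then stood at 0.36, 0.40, 0.30 and 0.04.

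Over 100 kb windows, log2 ratios were set against the median of all windows of chromosomes 1 to 19, and a window was called past 1.5-fold. In round spermatids 4 of 87 windows of the loci were called higher in H2A.L.2-less cells, 3 in Igk and 1 in Tcrb, beside 2.55% of all windows tested. Only 1, in Tcra/Tcrd, was called lower, beside 7.41% of all windows. The Igk window from 69200001 to 69300000 had 98 positions (WT) and 151 (H2A.L.2-less) (log2 ratio 0.71). In Tcrb the window from 40900001 to 41000000 had 134 and 196 (0.63), and in Tcra/Tcrd the window from 54800001 to 54900000 had 293 and 183 (-0.59). Median log2 ratios were 0.37 in Igh, with 26 of 28 windows above 0, 0.37 in Igk (29 of 31), 0.23 in Tcrb (8 of 8) and 0.03 in Tcra/Tcrd (11 of 20), against a median of 0.00 over all other windows.

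No window of the loci was called for the other genotype pairs. The background there was 0.129% higher and 0.175% lower for spermatocytes, 0.253% and 0.0464% for condensing nucleosomes, and 0.00908% and 0.0862% for small structures, where 85 of the 87 windows had enough positions to be tested. At these backgrounds, 0 of 87 windows is no sign of stability.

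**Figure D4:**
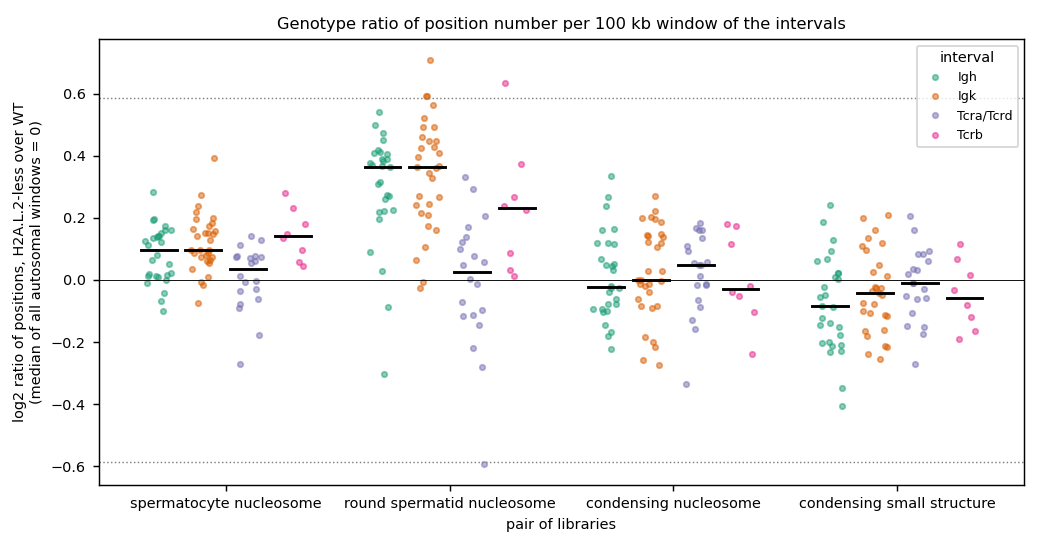
Log2 ratio, H2A.L.2-less over WT, of the number of positions in each 100 kb window of the 4 loci for the 4 genotype pairs, where bars are medians and dotted lines mark 1.5-fold. In round spermatids the Igh and Igk windows lie mostly above 0, with medians of 0.37, while those of Tcra/Tcrd scatter around 0.03.

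Windows with few small structures had high round spermatid ratios throughout the autosomes, and most windows of the loci are of that kind. All autosomal windows were put in 10 groups of like size by their number of WT small structures. Outside the loci the median log2 ratio went from 0.45 in the group with the fewest, 17 to 61 per window, to -0.63 in the group with the most. The median Igh and Igk window was in the third group, where other windows had a median of 0.30. Igh windows lay above the median of their own group by 0.10 (median, 24 of 28 above), Igk windows by 0.08 (23 of 31) and Tcrb windows by 0.06 (6 of 8). For Tcra/Tcrd windows the median difference was -0.04, with 7 of 20 above. The first Igh window, rich in small structures, had 432 positions (WT) and 330 (H2A.L.2-less) (log2 ratio -0.30), in a group with a median of -0.63.

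**Figure D5:**
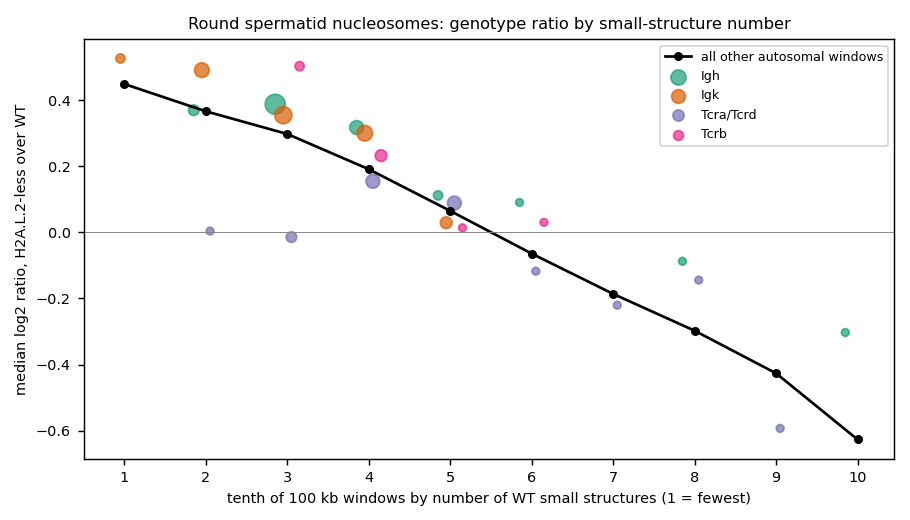
Median log2 ratio of round spermatid positions, H2A.L.2-less over WT, in 10 groups of 100 kb windows by their number of WT small structures, for the windows of each locus (point area grows with their number) and all other autosomal windows (black line). The line runs from 0.45 to -0.63, and points of Igh and Igk lie near or above it.

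H2A.L.2-less round spermatids also had the most even profiles. The CV of Igh windows was 0.293 (WT) and 0.143 (H2A.L.2-less), beside 0.371 and 0.213 on the rest of chromosome 12. It was 0.216 and 0.120 in Igk and 0.151 and 0.0626 in Tcrb, beside 0.359 and 0.175 on chromosome 6. Tcra/Tcrd windows kept more of their variation, with 0.388 and 0.343, beside 0.361 and 0.243 on the rest of chromosome 14. Since the chromosome CVs span distant regions, their level is not directly comparable with that of neighbouring windows in a locus.

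Single summits were matched between genotypes when they lay within 40 bp of a summit in the other list. In the earlier stages the matched share was somewhat higher in the loci than on the rest of their chromosomes. For spermatocytes, 55.6% of WT summits in Igh were matched (95% Wilson interval 54.3 to 56.9%) against 51.4% on the rest of chromosome 12, above 38 of 40 windows. The shares were 53.0% in Igk and 57.5% in Tcrb against 52.0%, and 55.2% in Tcra/Tcrd against 52.6%. Igk was above 28 of 44 windows, Tcrb above 169 of 176 and Tcra/Tcrd above 46 of 59. For round spermatids the shares were 51.3% in Igh (rest 43.8%), 50.7% in Igk and 49.1% in Tcrb (rest 44.2%), and 47.7% in Tcra/Tcrd (rest 45.4%). The Igh and Igk shares were above 39 of 40 and 41 of 44 windows, that of Tcrb above 134 of 176 and that of Tcra/Tcrd above 34 of 59. After moving the H2A.L.2-less list by 5000 bp, 21.8% of round spermatid summits in Igh and 15.7% in Igk still met one, beside 18.5% and 18.4% on the rest of their chromosomes. Over the moved list, the Igh match was thus no higher than on the rest, at 2.35 against 2.37 times. It was 3.23 against 2.40 times for Igk, 2.67 against 2.40 for Tcrb and 2.82 against 2.42 for Tcra/Tcrd.

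In condensing nucleosomes 38.2% of Tcra/Tcrd summits were matched (36.3 to 40.1%), against 31.8% on the rest of the chromosome (SD 6.35 points, above 54 of 59 windows). Igh had 28.4% (rest 31.5%), Igk 28.2% and Tcrb 29.2% (rest 30.1%). For small structures the shares were 51.0% in Igh (rest 57.9%), 50.8% in Igk and 50.7% in Tcrb (rest 56.8%), and 55.7% in Tcra/Tcrd (rest 55.2%). The moved list met only 7.90% of small structures in Igk, against 20.8% on the rest of chromosome 6. Relative to the moved list, matching was thus higher in each locus than on the rest, unlike the plain shares of Igh, Igk and Tcrb. For small structures it was 4.2 against 2.59 times in Igh and 6.43 against 2.73 in Igk. Tcrb had 5.37 against 2.73, and Tcra/Tcrd 4.16 against 2.97. In condensing nucleosomes the gap was smaller, with 1.88 against 1.82 times in Igh and 2.15 against 1.90 in Igk. There Tcrb had 2.05 against 1.90, and Tcra/Tcrd 2.51 against 1.93.

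Stages and fragment classes were compared last. A size range was given for condensing fragments only, so differences between those and earlier lists cannot be told apart from fragment selection. From WT spermatocytes to round spermatids no window of the loci was called in either direction, beside 0.217% of all windows higher and 0% lower. The log2 ratio relative to the rest was 0.07 for Igk (SD 0.05), above 41 of 44 windows, and -0.03 for Igh (SD 0.10), 0.01 for Tcra/Tcrd (SD 0.04) and 0.00 for Tcrb (SD 0.07). Igk held relatively more positions in WT condensing nucleosomes than in round spermatids, with 4035 against 4763, while the rest of chromosome 6 had 210658 against 306459. The log2 ratio relative to the rest was 0.30 (SD 0.13), above all 44 windows. It was 0.18 for Tcrb (SD 0.17), 0.15 for Tcra/Tcrd (SD 0.28) and -0.03 for Igh (SD 0.19). Only 2 of 87 windows were called higher, 1 in Igk and 1 in Tcra/Tcrd, beside 2.5% of all windows, and 0 lower beside 1.91%.

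In H2A.L.2-less cells the step from spermatocytes to round spermatids gave log2 ratios of 0.22 for Igh (SD 0.17), 0.31 for Igk (SD 0.19), 0.12 for Tcrb (SD 0.22) and 0.00 for Tcra/Tcrd. There 3 windows were called higher, 1 in Igh and 2 in Igk, beside 0.889% of all windows, and 0 lower beside 0.706%. The next step, to condensing nucleosomes, gave -0.36 for Igh (SD 0.35), -0.05 for Igk, -0.09 for Tcrb and 0.16 for Tcra/Tcrd. It had 5 windows called lower, 4 in Igh and 1 in Igk, beside 9.96% of all windows, and 0 higher beside 7.18%. These steps share the H2A.L.2-less round spermatid library.

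Within condensing spermatids, Igh and Igk held fewer small structures than their nucleosomes would give, and Tcrb did so less clearly. The log2 ratio of small structures over nucleosomes, relative to the rest of the chromosome, was -0.79 (WT) and -0.88 (H2A.L.2-less) for Igk (SDs 0.46 and 0.51). It was -0.55 and -0.68 for Igh (SDs 0.42 and 0.47), -0.50 and -0.59 for Tcrb (SDs 0.52 and 0.57), and -0.07 and -0.09 for Tcra/Tcrd (SDs 0.40 and 0.44). Of the same-length windows, 5 (WT) and 6 (H2A.L.2-less) of 44 were lower than Igk, and 10 and 8 of 40 lower than Igh. For Tcrb 64 and 65 of 176 were lower. In WT 38 of 87 windows were called lower, 23 in Igk, 12 in Igh, 2 in Tcrb and 1 in Tcra/Tcrd, beside 22.8% of all windows. Only 1, in Tcra/Tcrd, was called higher, beside 13.4%. In H2A.L.2-less cells 40 windows were called lower, 23 in Igk, 14 in Igh and 3 in Tcrb, beside 22.6%, and 1 in Tcra/Tcrd higher, beside 23.5%. The Tcrb calls were 25% (WT) and 37.5% (H2A.L.2-less) of its 8 windows. Of the WT nucleosome summits of Igk, 17.1% had a small structure within 40 bp against 31.7% on the rest of chromosome 6, and 27.8% of those in Tcra/Tcrd against 30.8% on chromosome 14. With one list moved by 5000 bp the shares were 9.94% in Igk (22.7% on the rest) and 17.1% in Tcra/Tcrd (21.9%). The matched share was thus 1.72 times that of the moved list in Igk against 1.39 times on the rest, and 1.63 against 1.41 times for Tcra/Tcrd.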

How the data were processed

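MNase fragments of 8 germ cell libraries had been sequenced, and the aligned runs of a sample pooled, per the series description. The submitters' processing notes name mm9, Bowtie2 2.2.9 and deepTools 2.2.4. How the position caller was set and how multiply aligned reads were handled is not given in the sources used here. Positions carry a chromosome, limits, a summit with its value, and a fuzziness score, per the file headers. Deposited summit values are coverage signal in whole multiples of 4, with no normalization to depth seen in the values, so a level was always divided by the median of its own list. The fuzziness score is the authors' own. Positions were 140 bp wide.

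Groups came from sample titles, with 1 library each, so no test across libraries was made. The members and the measures were chosen with earlier results of these data known. Density is positions per Mb over the rest of the chromosome, from its first to its last summit without the loci. Distances were counted in 10 bp bins to 1000 bp and smoothed over 5 bins. Regularity divided the highest value between 330 and 450 bp by the lowest between 230 and 330 bp. Windows of 100 kb needed 100 positions in a pair of lists. Named windows were those with the most and fewest positions in WT spermatocytes, those with the highest and lowest genotype ratio past 1.5-fold, the longest gaps and the highest summits, and other named windows, such as those at the edges, were chosen after their values were seen. The alternatives were equal numbers of positions (3779744, the shortest list), positions at or above the list median, trimmed intervals, all autosomes as the reference, other windows, folds, smoothing, match distances and lengths. Python 3.11.15, numpy 2.4.6, pandas 2.3.3, scipy 1.17.1 and matplotlib 3.10.9 were used. On simulated data a repeat of 190 bp was recovered as 190 bp.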

Additional observations from a re-analysis of the deposited data

Results flagged for a closer look

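The genotype difference of Igh had opposite signs in different lists. Relative to the rest of chromosome 12, the log2 ratio of positions, H2A.L.2-less over WT, was 0.0985 in spermatocytes and 0.353 in round spermatids, and -0.108 among small structures. Each was further from 0 than the SD over same-length windows (0.0875, 0.275 and 0.0810). Those windows had medians of 0.0459, 0.0434 and -0.0697, and from these the spermatocyte and small-structure ratios lay within 1 SD. Of the 40 windows, 32, 31 and 9 had a lower ratio than Igh. The difference between the Igh ratios was not tested, since each rests on 1 library per genotype. With equal numbers of positions the small-structure ratio was 0.0759, and the signs then did not differ.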

How the results depend on the processing

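Igk, Tcra/Tcrd and Tcrb were less dense than their chromosome in all 8 lists, and Igh in 7. These counts stayed within 1.5 times under each alternative run, including lengths without empty 1 kb bins, which were added after the data were seen. With equal numbers, and with positions at or above the list median, they were 6 for Igh and 7 for Tcrb. Tcrb in H2A.L.2-less round spermatids went from 0.994 to 1.02 and 1.03. Igh in H2A.L.2-less spermatocytes went from 0.981 to 1.01 and 1.07. The genotype ratio of Igh small structures turned to 0.0759 with equal numbers of positions and to 0.0525 for positions at or above the list median. The number of loci with more H2A.L.2-less small structures than the chromosome gives, 0 of 4, became 4 in both settings and 1 with trimmed intervals. With smoothing over 3 bins, the lists of the earlier stages in which regularity was below the chromosome numbered 0 for Igh, 2 for Igk and 1 for Tcrb (1, 1 and 2 of 4 before), and with equal numbers 2, 4 and 1. Trimming gave 1 for Tcrb. The lists with a median height below the chromosome were 1 for Tcra/Tcrd with trimming (2 before), and 5 for Tcrb by the mean without the highest 0.1% of positions (3 before). With all autosomes as the reference, 1 locus in place of 3 held relatively more positions in WT round spermatids than in spermatocytes. Matched shares were above the chromosome in 2 loci, in place of 1, within 20 bp for condensing nucleosomes, and in 0, in place of 1, within 73 bp for small structures.

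At 2-fold, 0% of windows were called in round spermatids in either direction, 0% higher from WT round spermatids to condensing nucleosomes, 0% higher from H2A.L.2-less spermatocytes to round spermatids and 0% lower from there to condensing nucleosomes. Small structures against nucleosomes then gave 9.2% lower (WT) and 10.3% lower (H2A.L.2-less), where 1.5-fold had given 43.7% and 46.0%, and 0% higher in both. With equal numbers, these shares were 62.4% and 57.5%, 5.8% of windows were higher in H2A.L.2-less small structures (0% before), and 2.3% lower from H2A.L.2-less round spermatids to condensing nucleosomes (5.75% before). Windows of 50 kb gave 8.09% higher from WT round spermatids to condensing nucleosomes (2.3% before). Shares over all windows are given for the main setting only, so the shares under the alternatives cannot be set against the genome. The causes were not tested. No paired analysis was possible because each group had 1 library.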

Other observations

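In the middle of Igh, the window from 116000001 to 116100000 stood above both neighbours in each of the 8 lists, which was noticed after its values were seen. It held 230 condensing nucleosome positions in WT, against 124 before and 138 after it, and 233 in H2A.L.2-less cells, against 138 and 125. In WT spermatocytes it had 211 against 165 and 153, in round spermatids 231 against 178 and 179, and among small structures 146 against 98 and 102. Tcra/Tcrd had a like window from 54100001 to 54200000, with 188 condensing nucleosome positions in WT against 108 before and 164 after it, and 184 against 106 and 140 in WT spermatocytes.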
